A study of Mus musculus with 24 samples.

Results

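The 10 tetraspanin genes Cd9, Cd37, Cd53, Cd63, Cd81, Cd82, Cd151, Tspan9, Tspan32 and Tspan33 were followed along the path from blood stem cell to megakaryocyte progenitor in mouse bone marrow. They were chosen by gene symbol, and all 10 were found among the 24454 genes of the deposited count table. RNA was sequenced by Smart-seq2 from cells sorted by flow cytometry, in 24 libraries that form 8 groups of 3. The populations are LTHSC, the long-term haematopoietic stem cells, preMegE, a progenitor with both megakaryocyte and red cell fates open to it, and MkP, the megakaryocyte progenitor, whose descendants release platelets. Each of the 3 populations was sorted from the VF and KI lines, and LTHSC and MkP also from the E12 line. VF is a Vav1.Cre line carrying the Jak2 allele that the labels shorten to VF, E12 is a Scl.Cre line labelled Exon12, and KI, also Scl.Cre, is labelled as a knock-in of mouse Jak2. All mice were C57BL/6N, and cells were sorted 12 weeks after tamoxifen, which was given on 5 days. VF differs from the other lines in its Cre driver as well as its allele, and these cannot be told apart. Which line, if any, is without a mutation is not in the labels, and the other lines were set against KI.

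Tetraspanins are small membrane proteins that cross the cell membrane several times and gather integrins, proteases and other partners into patches of the membrane. In platelets and their precursors they sit beside the fibrinogen receptor made of Itga2b and Itgb3, and some travel to granules. Cd9 is abundant on platelets, Cd63 marks lysosomes and platelet dense granules, and Tspan9 and Cd151 are platelet tetraspanins. Tspan32, also called Tssc6, acts in signalling of the platelet integrin, while Cd37 and Cd53 are found mainly on white blood cells. Cd81 is found on many cell types, Cd82 is known from the dormancy of stem cells and from tumour spread, and Tspan33 belongs to the TspanC8 subgroup that carries the protease Adam10.

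Total counts were 10357877 to 29691635 per library, and 13237 to 16006 genes had a count. Levels are CPM, read counts relative to library size, scaled by the trimmed mean of M-values (TMM) over all 24 libraries. LTHSC E12 replicate 4, preMegE KI replicate 1 and MkP KI replicates 5 and 6 stood apart, with TMM factors within their population of 0.754, 0.589, 0.585 and 0.530, all under 0.8. The summed level of 10 stem cell markers was 1240.5 to 1524 CPM in LTHSC other than E12 replicate 4, where it was 420 CPM. It was 182 to 301 CPM in preMegE and 338 to 654 CPM in MkP. The summed level of 10 megakaryocyte markers was 413 to 1807 CPM in LTHSC, 763 to 3380 CPM in preMegE and 3148 to 16166 CPM in MkP. LTHSC E12 replicate 4 also held 27005 CPM of 9 neutrophil and monocyte markers, against 753 to 2226 CPM in the other LTHSC libraries. MkP KI replicates 5 and 6 held 4777 and 6445 CPM of Nkg7, a granule gene of cytotoxic cells, against 293 to 614 CPM in the other MkP libraries. Their 6 mast cell and basophil markers summed to 989 and 752 CPM, with 282.5 CPM in KI replicate 4, against 48.6 to 156 CPM in VF and E12 MkP. Cd3e, Cd3g, Cd4 and Cd8a, which define T cells, had no count in KI replicates 5 and 6. These zeros are not particular to the 2 libraries. Cd3e and Cd3g had no count in any MkP library, Cd8a was counted only in E12 replicate 4, and Cd4 had no count in VF replicate 1 either. Klrb1c, the NK cell marker listed with them, had no count in KI replicate 5 or VF replicate 3 and was counted in KI replicate 6. The part of these differences in the results below was not tested, and main values that rest on the 4 libraries are given with and without them. In bulk RNA, fewer cells of a type and less RNA per cell cannot be told apart.

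**Figure D1:**
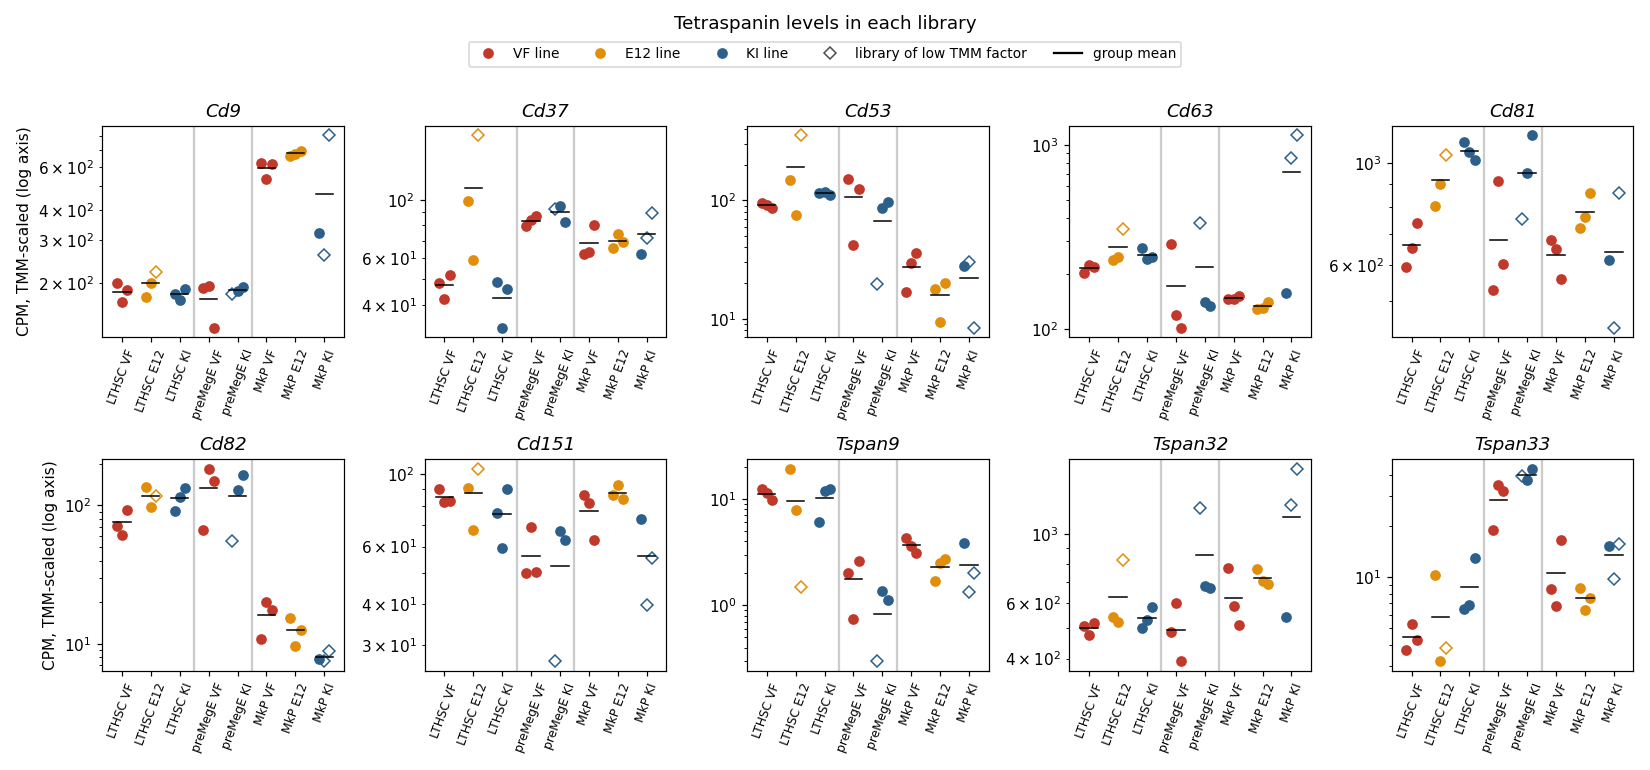
Level of each tetraspanin in each of the 24 libraries, as TMM-scaled CPM on a log axis, with populations in order of the path and VF left of E12 and KI. Lines are group means and open diamonds are the 4 libraries of low TMM factor; a library with no count (Tspan9 in preMegE KI replicate 1) is drawn at the foot of its panel. At this scaling Cd9 stands higher in all 9 MkP libraries, Cd82 lower in all 9, and Tspan33 highest in preMegE.

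The 3 populations were compared first. MkP had about 3 times the Cd9 of stem cells and far less Cd82 and Cd53, while Tspan33 peaked in preMegE. Between MkP and LTHSC, 6 of the 10 genes passed the test, 3 higher and 3 lower, and 34.7% of the 14965 genes tested passed, 17% higher and 17.7% lower. Between preMegE and LTHSC, 4 passed, 2 in each direction, which is near the 40.7% of all genes tested (21.3% higher and 19.4% lower). Between MkP and preMegE, 4 passed, 1 higher and 3 lower, and 7.54% of all genes tested passed, 3.27% higher and 4.26% lower. At TMM scaling, libraries did not overlap between MkP and LTHSC for 1 member that was higher and 2 that were lower, beside 1.4% and 3.35% of all genes. Between MkP and preMegE it was again 1 higher and 2 lower, beside 1.38% and 2.02%, and between preMegE and LTHSC 2 higher and 1 lower, beside 12.8% and 13.1%. Without the 4 libraries 39.2% of all genes passed between MkP and LTHSC, 49.8% between preMegE and LTHSC and 17% between MkP and preMegE. With the replicate number as a block, MkP and LTHSC were compared in the VF and E12 lines only, and MkP and preMegE in VF only. So fitted, 12.6% passed between MkP and LTHSC and 2.17% between MkP and preMegE. The block and the smaller set of lines changed together, and their parts cannot be told apart. All 10 genes passed the filter on low counts in every fit. The median log2 difference of the 10 was -0.11 between MkP and LTHSC, beside 0.01 over all genes tested. It was -0.04 between preMegE and LTHSC, beside -0.02 over all genes tested. Tests are edgeR quasi-likelihood F tests with Benjamini-Hochberg adjustment over all genes tested and a threshold of 0.05. Without the block, contrasts with preMegE use the VF and KI lines only. With library size as the only scaling, 27.5% of the genes called between MkP and LTHSC were higher in MkP, beside 49.1% with TMM, and 31.3% of those between preMegE and LTHSC were higher in preMegE, beside 52.2% with TMM. Whether replicates are separate mice is not in the labels, and the p-values then reflect only how far these libraries spread, which may be technical.

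Cd9 (Entrez 12527, chromosome 6, 125460266 to 125494760, GRCm38.p6) was higher in MkP than in either earlier population. LTHSC libraries had 166 CPM at the lowest, 188 at the median and 223 at the highest, and preMegE libraries 131, 188 and 195 CPM. MkP libraries had 623, 536 and 615 CPM in VF, 666, 680 and 697 CPM in E12, and 321, 261 and 807 CPM in KI. At TMM scaling every MkP library lay above every LTHSC and preMegE library, and the lowest were KI replicates 4 and 5. For KI replicate 5 this rests on its low TMM factor. By library size alone, with 1557 Cd9 reads of 10357877, it lay below every LTHSC library and within the preMegE range. Cd9 rose 3.04-fold in MkP against LTHSC (log2 1.61, SE 0.19, edgeR adjusted p = 1.24e-06) and 2.92-fold against preMegE (log2 1.55, SE 0.23, edgeR adjusted p = 0.000194). Between preMegE and LTHSC the log2 difference was -0.02 (SE 0.22, edgeR adjusted p = 0.951). Without the 4 libraries the log2 difference between MkP and LTHSC was 1.41.

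Cd82 (Entrez 12521, chromosome 2, 93419102 to 93462950) went the other way. LTHSC libraries had 61.6 CPM at the lowest, 97.2 at the median and 136 at the highest, and preMegE libraries 55.2, 140.3 and 184 CPM. MkP libraries had 10.8, 20.0 and 17.7 CPM in VF, 15.3, 9.74 and 12.7 CPM in E12, and 7.76, 7.55 and 8.90 CPM in KI. No MkP library reached the lowest LTHSC or preMegE library. Cd82 fell to an average of 12.3 ± 4.49 CPM in MkP, against 102 ± 25.8 CPM in LTHSC (SD, n = 9 each), 8.46-fold lower (log2 -3.08, SE 0.23, edgeR adjusted p = 2.31e-09). Against preMegE it was 10.9-fold lower (log2 -3.45, SE 0.29, edgeR adjusted p = 4.81e-07). preMegE and LTHSC differed by 0.44 (SE 0.26, edgeR adjusted p = 0.181), or by 0.54 without the 4 libraries (edgeR adjusted p = 0.0456).

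Cd53 (Entrez 12508, chromosome 3, 106758861 to 106790149) fell in MkP as well. LTHSC libraries had 74.9 CPM at the lowest, 111 at the median and 354 at the highest, the highest being E12 replicate 4. In preMegE it was uneven, with 152, 42.1 and 126 CPM in VF and 19.7, 86.4 and 96.0 CPM in KI. MkP libraries had 8.41 CPM at the lowest, 20.0 at the median and 35.9 at the highest, all below every LTHSC library, while preMegE libraries overlapped both. Cd53 was 5.93-fold lower in MkP than in LTHSC (log2 -2.57, SE 0.35, edgeR adjusted p = 9.4e-06) and 3.44-fold lower than in preMegE (log2 -1.78, SE 0.42, edgeR adjusted p = 0.00934). The second call was lost with the replicate number as a block, in the VF line only (log2 -1.87, edgeR adjusted p = 0.139). Over the 24 libraries the log2 levels of Cd53 and Cd82 had a Pearson r of 0.81, and Cd9 had an r of -0.80 with Cd53 and -0.84 with Cd82. These are descriptions over libraries that share the 3 populations.

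Ratios taken inside one library do not depend on the scaling between libraries. Per kilobase of gene length, Cd9 stood 2.24 to 4.87 times as high as Cd82 in LTHSC, 1.51 to 5.70 times in preMegE and 46.7 to 158 times in MkP. Cd9 over Cd81 was 0.205 to 0.428 in LTHSC, 0.214 to 0.460 in preMegE and 0.663 to 1.40 in MkP. Cd9 passed Cd81 in 7 of the 9 MkP libraries and in none of the 9 LTHSC and 6 preMegE libraries.

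Tspan33 (Entrez 232670, chromosome 6, 29694214 to 29718558) was highest in preMegE. LTHSC libraries had 3.22 CPM at the lowest, 5.29 at the median and 12.9 at the highest. preMegE libraries had 18.9, 34.5 and 31.9 CPM in VF and 39.5, 36.9 and 43.3 CPM in KI, and MkP libraries had 6.42 CPM at the lowest, 8.61 at the median and 16.6 at the highest. All 6 preMegE libraries lay above all others, and MkP and LTHSC overlapped. The 9 erythroid markers summed to 49.5 to 1130 CPM in LTHSC, 1996 to 5252 CPM in preMegE and 238 to 1088 CPM in MkP, and their part in the Tspan33 values was not tested. Tspan33 was 5.40-fold higher in preMegE than in LTHSC (log2 2.43, SE 0.32, edgeR adjusted p = 8.99e-06). MkP fell below preMegE (log2 -1.49, SE 0.31, edgeR adjusted p = 0.00371). This call was lost with the replicate number as a block, in the VF line only (edgeR adjusted p = 0.0641). MkP stayed 1.69-fold above LTHSC (log2 0.76, SE 0.25, edgeR adjusted p = 0.0228). That call was lost when LTHSC E12 replicate 2 (log2 0.66, edgeR adjusted p = 0.0509) or MkP VF replicate 3 (log2 0.60) was left out, and with library size as the only scaling (log2 0.45, edgeR adjusted p = 0.271).

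The start regions of Cd9, Cd53, Cd82 and Tspan33 are shown because these 4 genes passed the test both between MkP and LTHSC and between MkP and preMegE. Each is 300 bases of RefSeq sequence (GRCm38.p6), 250 before the start and 50 from it, read 5′ to 3′ on the gene's strand; capitals mark GATA letters (AGATAA, also with T for the first letter, G for the last, or both) and ETS letters (AGGAAG, also with C for the first letter) on either strand.
Cd9, chr6:125494711-125495010, minus strand: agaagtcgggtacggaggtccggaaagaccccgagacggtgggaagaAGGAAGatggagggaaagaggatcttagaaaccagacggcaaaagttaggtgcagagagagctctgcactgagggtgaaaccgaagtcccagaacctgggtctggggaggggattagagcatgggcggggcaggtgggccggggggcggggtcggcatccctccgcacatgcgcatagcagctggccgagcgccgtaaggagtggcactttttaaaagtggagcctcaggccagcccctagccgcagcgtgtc
Cd82, chr2:93462901-93463200, minus strand: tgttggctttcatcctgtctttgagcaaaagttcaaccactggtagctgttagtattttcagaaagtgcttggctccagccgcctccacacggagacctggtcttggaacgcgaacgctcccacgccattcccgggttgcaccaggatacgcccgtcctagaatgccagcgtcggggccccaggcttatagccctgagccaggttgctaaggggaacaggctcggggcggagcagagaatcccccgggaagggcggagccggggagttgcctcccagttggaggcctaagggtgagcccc
Cd53, chr3:106790100-106790399, minus strand: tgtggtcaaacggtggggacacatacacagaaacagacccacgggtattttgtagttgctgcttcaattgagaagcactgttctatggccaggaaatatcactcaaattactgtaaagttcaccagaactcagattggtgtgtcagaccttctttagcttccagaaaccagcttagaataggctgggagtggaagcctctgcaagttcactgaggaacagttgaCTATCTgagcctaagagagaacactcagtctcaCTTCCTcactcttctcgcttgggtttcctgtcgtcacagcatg
Tspan33, chr6:29693964-29694263, plus strand: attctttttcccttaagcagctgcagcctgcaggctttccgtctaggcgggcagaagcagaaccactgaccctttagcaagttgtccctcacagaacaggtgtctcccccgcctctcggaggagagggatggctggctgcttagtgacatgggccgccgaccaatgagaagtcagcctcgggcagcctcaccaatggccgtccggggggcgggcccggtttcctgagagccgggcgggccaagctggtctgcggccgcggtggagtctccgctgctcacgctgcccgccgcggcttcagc
Cd53 held 1 GATA match, 26 bases before the start, and 1 ETS match just after it. Cd9 held 1 ETS match, and the windows shown for Cd82 and Tspan33 held neither kind of letters. The table has 4 start windows for Cd82, and of the 3 not shown 2 held ETS letters and none GATA letters. In the first window of each of the 10 genes, Cd37 and Tspan32 were the others with a GATA match, and 1 of the further windows of Tspan9 also held GATA letters. Among all 32851 such windows in the table, 29.8% held a GATA match and 46.5% an ETS match. The Cd53 window was 46.3% G or C, below the median of 52.7% over all windows, and those of Cd9, Cd82 and Tspan33 were 61.3%, 60.7% and 65% G or C. A match is a description of the letters and not a site shown to be bound.

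Tspan9 (Entrez 109246, chromosome 6, 127961396 to 128143578) was the scarcest of the 10 in preMegE and MkP, and with Tspan33 one of the lowest in LTHSC. LTHSC libraries had 1.49 CPM at the lowest, 11.4 at the median and 19.2 at the highest, the lowest being E12 replicate 4. preMegE libraries had 2.00, 0.74 and 2.58 CPM in VF and 0, 1.37 and 1.12 CPM in KI, and MkP libraries 1.34 to 4.28 CPM. It was 8.40-fold lower in preMegE than in LTHSC (log2 -3.07, SE 0.58, edgeR adjusted p = 0.000368), with no overlap in the VF and KI lines. It was 3.72-fold lower in MkP than in LTHSC (log2 -1.89, SE 0.45, edgeR adjusted p = 0.00259). This call was lost with the replicate number as a block, in the VF and E12 lines only (log2 -1.19, edgeR adjusted p = 0.189). MkP and preMegE differed by 1.25 (SE 0.55, edgeR adjusted p = 0.19), and by 1.35 without the 4 libraries (edgeR adjusted p = 0.0211).

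Cd37 (Entrez 12493, chromosome 7, 45233632 to 45239340) was higher in preMegE than in LTHSC in the VF and KI lines. preMegE had 79.5, 83.7 and 87.0 CPM in VF and 92.5, 94.6 and 82.4 CPM in KI, against 48.4, 42.2 and 52.0 CPM in VF LTHSC and 49.0, 32.8 and 46.1 CPM in KI LTHSC. The groups did not overlap, and the difference was 1.92-fold (log2 0.94, SE 0.20, edgeR adjusted p = 0.00115). With library size as the only scaling it was 0.54 (edgeR adjusted p = 0.0612). E12 LTHSC, which do not enter that contrast, had 99.4, 59.1 and 176 CPM. MkP and LTHSC differed by 0.22 (SE 0.16, edgeR adjusted p = 0.323).

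Cd151 (Entrez 12476, chromosome 7, 141467362 to 141471481) was 1.47-fold lower in preMegE than in LTHSC (log2 -0.56, SE 0.21, edgeR adjusted p = 0.0394), with 54.2 ± 15.7 CPM in preMegE and 80.0 ± 11.3 CPM in LTHSC (SD, n = 6 each). The groups overlapped, and the call was lost in 8 of the 24 fits that leave out 1 library, with adjusted p up to 0.0987: without LTHSC KI replicate 1 or 3, LTHSC VF replicate 1, 2 or 3, preMegE KI replicate 1, or preMegE VF replicate 1 or 3. Tspan32 (Entrez 27027, chromosome 7, 143004907 to 143019486) was 1.45-fold higher in MkP than in LTHSC (log2 0.53, SE 0.20, edgeR adjusted p = 0.0449), with 828 ± 366 CPM in MkP and 557 ± 105 CPM in LTHSC (SD, n = 9 each). That call was lost in 17 of the 24 fits that leave out 1 library. It held only without LTHSC E12 replicate 4, MkP KI replicate 4, MkP VF replicate 3, preMegE VF replicate 2 or any one of the preMegE KI libraries, and without the 4 libraries the log2 difference was 0.21 (edgeR adjusted p = 0.159). Its start lies on the same chromosome as that of Cd81 (Entrez 12520, chromosome 7, 143052750 to 143067930), and 33263 bases separate the end of Tspan32 from the start of Cd81. The log2 levels of these neighbours had a Pearson r of 0.02 over the 24 libraries.

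Cd81 and Cd63 did not pass the test between any of the 3 populations over all libraries. Cd81 had 593, 901 and 1112 CPM at the lowest, median and highest LTHSC library, 528, 834 and 1148 CPM in preMegE, and 438, 678 and 862 CPM in MkP. Its log2 difference between MkP and LTHSC was -0.35 (SE 0.17, edgeR adjusted p = 0.12), and -0.38 without the 4 libraries (edgeR adjusted p = 0.0179). Cd63 (Entrez 12512, chromosome 10, 128896231 to 128912822) had 203, 241 and 350 CPM at the lowest, median and highest LTHSC library, 102, 137 and 378 CPM in preMegE, and 129, 146 and 1129 CPM in MkP. At TMM scaling the highest Cd63 library of each population was one of the 4 that stand apart. Dividing by a low TMM factor raises the CPM of these libraries. By library size alone the highest was one of the 4 in MkP but not in LTHSC or preMegE. In LTHSC, E12 replicate 4 was then just below KI replicate 1. Without the 4, Cd63 was lower than in LTHSC both in preMegE (log2 -0.66, edgeR adjusted p = 0.00978) and in MkP (log2 -0.75, edgeR adjusted p = 0.00338). At TMM scaling the highest Tspan32 library of each population was also one of these 4, at 826 CPM in LTHSC, 1213 CPM in preMegE and 1618 CPM in MkP. By library size alone this was so in LTHSC and MkP but not in preMegE.

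**Figure D2:**
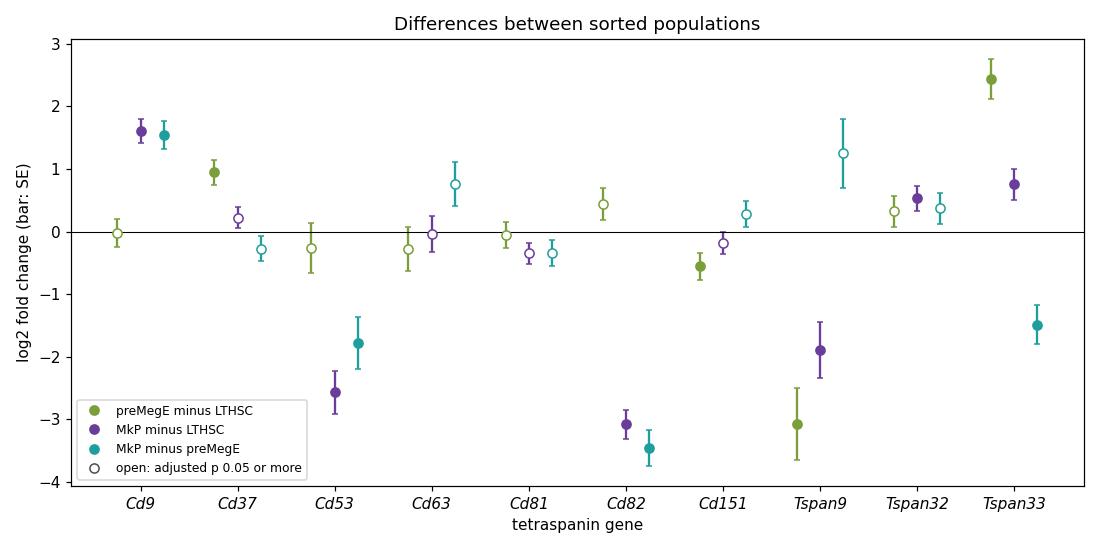
Log2 fold change of each tetraspanin between populations, with its standard error, for preMegE minus LTHSC, MkP minus LTHSC and MkP minus preMegE. Filled points passed an adjusted p of 0.05. Cd9 is up at 1.61 and 1.55 in the MkP contrasts, Cd82 down at -3.08 and -3.45, and Tspan33 up at 2.43 in preMegE and down at -1.49 after it.

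Per kilobase of gene length, which allows genes to be compared, Cd81 led in LTHSC at 580 CPM per kilobase, before Tspan32 at 305, Cd63 at 206 and Cd9 at 158. These neighbours overlapped over libraries, and a gap without overlap followed before Cd82 at 49.0, Cd37 at 48.6, Cd53 at 47.4 and Cd151 at 41.0. Tspan33 at 3.16 and Tspan9 at 2.61 CPM per kilobase came last and overlapped each other. In preMegE the order of the first 4 genes was the same, from Cd81 at 538 to Cd9 at 151 CPM per kilobase, and Tspan33 reached 17.1 while Tspan9 was at 0.331. In MkP, Cd9 at 485, Tspan32 at 454 and Cd81 at 450 CPM per kilobase overlapped each other. Cd63 came next with a mean of 273 that rests on KI replicates 5 and 6, at 703 and 932 CPM per kilobase. Its other 7 MkP libraries held 106 to 130 CPM per kilobase, and over all libraries it overlapped Cd81. Cd37 at 51.3 and Cd151 at 36.5 came next, and Cd53 at 7.80, Cd82 at 5.91 and Tspan33 at 5.28 overlapped each other below a gap. Cd81 and Tspan32 together held 52.1% to 71.3% of the summed CPM of the 10 genes in every library.

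**Figure D3:**
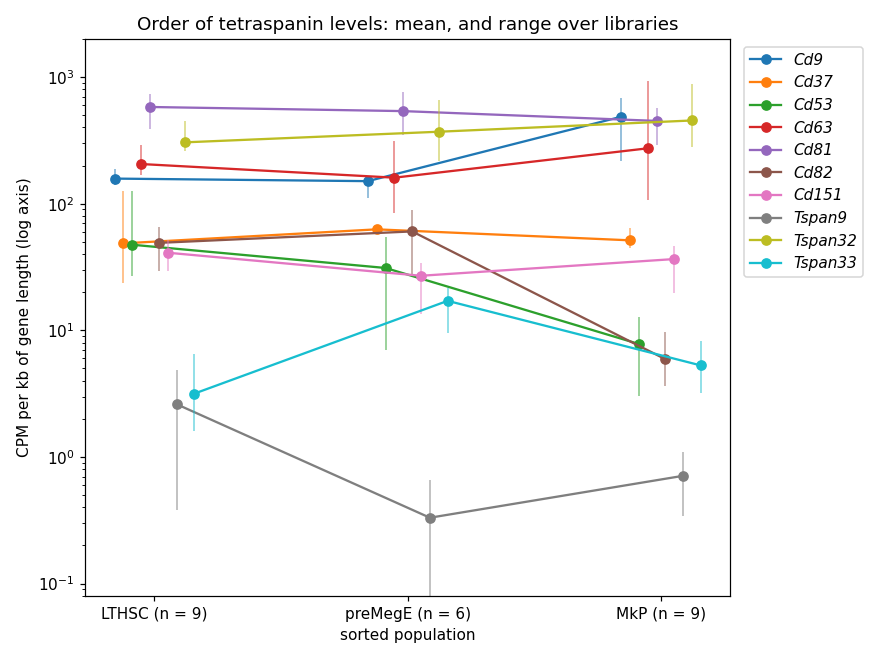
Mean level of each tetraspanin in CPM per kilobase of gene length, on a log axis, in LTHSC, preMegE and MkP, with the range over libraries as a vertical line. Cd9 stands at rank 4 with 158 in LTHSC and first with 485 in MkP, and Cd82 and Cd53 drop below 8 CPM per kilobase; the range of Tspan9 in preMegE reaches 0 and is cut at the axis.

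The other tetraspanins and the partners of the family were counted from lists. Of 21 other tetraspanins 17 could be tested, and between preMegE and LTHSC 2 rose and 6 fell, with a median log2 difference of -0.66. These 8 of 17 stand beside 40.7% of all genes called in that comparison, and the median beside -0.02 over all genes tested. Tspan8 was higher in preMegE, at 26.0 ± 12.7 CPM against 2.35 ± 1.99 CPM in LTHSC (SD, n = 6 each; log2 3.40, edgeR adjusted p = 0.000164), and fell again in MkP against preMegE (log2 -3.10, edgeR adjusted p = 0.00164). Tspan15, another TspanC8 gene, was higher in preMegE than in LTHSC (log2 5.33, SE 1.26, edgeR adjusted p = 0.00228). It was scarce and uneven, at 5.70 ± 5.25 CPM in preMegE and 0.14 ± 0.20 CPM in LTHSC (SD, n = 6 each). Tspan5 and Tspan14 of that subgroup were lower in preMegE (log2 -1.04 and -0.69). Tspan3, Tspan4, Tspan6 and Tspan7 were the others lower in preMegE than in LTHSC. Of these Tspan7 was scarce, at 0.08 ± 0.10 CPM in preMegE and 2.14 ± 1.57 CPM in LTHSC (SD, n = 6 each). Between MkP and LTHSC 0 of the 17 rose and 6 fell, beside 34.7% of all genes called, with a median of -0.26. Those that fell were Tspan3 (log2 -0.92), Tspan13 (log2 -0.70), Rom1, Tspan2, Tspan7 and Upk1b. The last 2 were scarce throughout. Tspan7 was at 0.16 ± 0.28 CPM in MkP and 2.36 ± 1.78 CPM in LTHSC, and Upk1b at 0 and 0.72 ± 0.87 CPM (SD, n = 9 each). Between MkP and preMegE 0 rose and 3 fell (Rom1, Tspan8 and Tspan31), beside 7.54% of all genes called. Of 25 partners and regulators 24 could be tested, and 6 rose and 3 fell between MkP and LTHSC, 9 of 24 beside 34.7% of all genes called. Itga2b averaged 1280 CPM in MkP, against 166 CPM in LTHSC (log2 3.00, edgeR adjusted p = 2.62e-09), and its partner Itgb3 rose too (log2 1.93, edgeR adjusted p = 1.94e-05). Clec1b, a platelet receptor, rose (log2 3.64, edgeR adjusted p = 4.65e-06), as did Rap1b, a small GTPase of integrin activation (log2 1.97, edgeR adjusted p = 0.000159). The partners given with a test here are all among the 6 that rose, and no test is given for the 3 that fell. Mean levels went down in some listed genes. Kit averaged 390 CPM in MkP against 711 CPM in LTHSC, and Sdcbp 733 CPM against 1103 CPM. Between MkP and preMegE 6 partners rose and 1 fell, beside 7.54% of all genes called, and between preMegE and LTHSC 3 rose and 3 fell, beside 40.7%.

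The genes whose log2 levels ran most like those of a member were searched among 9404 genes (9405 for Tspan9) with a mean of at least 10 CPM over the 24 libraries. For Cd9 they were Lims1 (Pearson r 0.90), Fyb (0.89) and Fermt3 (0.88). For Cd82 they were Tgif1 (0.92), Arntl (0.91) and Sdc4 (0.89), and for Cd53 Trf, Cd34 and Arid5a (each 0.92). For Tspan33 they were B3glct (0.84), Rgs12 and C1qtnf12 (0.83 each). For Cd63 they were Afp, Ebpl and Ptpn18 (each 0.95), and at TMM scaling the libraries at the top of Cd63 are those of low TMM factor. These likenesses rest on differences between the 3 populations as well as between libraries and carry no test.

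The Jak2 lines were then compared within each population. In stem cells, Cd81 was lower in VF. VF LTHSC had 593, 653 and 742 CPM of Cd81 and E12 LTHSC 806, 901 and 1043 CPM, against 1112, 1055 and 1015 CPM in KI LTHSC. All VF libraries lay below all E12 and KI libraries. VF minus KI was -0.71 (SE 0.22), with an edgeR adjusted p of 0.361 over all 9 LTHSC libraries, so it did not pass. Without E12 replicate 4, which is in neither group but shares the estimate of the spread, it was -0.71 with an edgeR adjusted p of 0.0205, and 2.03% of all genes then passed. VF minus E12 was -0.49 (SE 0.22, edgeR adjusted p = 0.451). The lines also differed in marker sums. The 9 erythroid markers summed to 49.5 to 72.8 CPM in KI LTHSC, 179 to 224 CPM in VF and 425 to 1130 CPM in E12. Neutrophil and monocyte markers summed to 1051 to 2226 CPM in KI LTHSC, 753 to 881 CPM in VF and 1265 to 27005 CPM in E12. The part of these in the tetraspanin values of the LTHSC lines was not tested.

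Of the 10 genes, edgeR called 0 between VF and KI in LTHSC, where 0.0919% of 14152 genes tested were called. There, 2 members, Cd81 and Cd82, had an unadjusted p under 0.05, as had 8.11% of all genes. DESeq2 called 0 members and 1.78% of all genes. Cd53, Cd63, Cd81 and Tspan33 did not overlap between VF and KI, all 4 lower in VF, where 13.5% of all genes did so in that direction. Tspan33 had 3.75, 5.29 and 4.26 CPM in VF, against 6.49, 6.88 and 12.9 CPM in KI (log2 -1.02, SE 0.51, edgeR adjusted p = 0.666). Cd82 averaged 75.4 ± 16.2 CPM in VF and 113 ± 21.1 CPM in KI (SD, n = 3 each; log2 -0.62, SE 0.25, edgeR adjusted p = 0.533).

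Between E12 and KI in LTHSC, edgeR called 0 of the 10, and 0.0424% of all genes. Of the members Cd37 alone had an unadjusted p under 0.05, beside 13.8% of all genes. DESeq2 called it as 1 member (adjusted p = 0.0216), and 3.11% of all genes. E12 LTHSC had 99.4, 59.1 and 176 CPM of Cd37, all above the 49.0, 32.8 and 46.1 CPM of KI LTHSC (log2 1.39, SE 0.37, edgeR adjusted p = 0.235), a lack of overlap in this direction that 8.49% of all genes shared. Replicate 4, the 176 CPM library, is the one with 27005 CPM of neutrophil and monocyte markers, and without it the log2 difference was 0.85. Without E12 replicate 2, the lowest of the line, it was 1.70 (edgeR adjusted p = 0.0376), and 2.74% of all genes passed. Cd53 had 150, 74.9 and 354 CPM in E12, against 116, 117 and 111 CPM in KI; its log2 difference of 0.76 (SE 0.45, edgeR adjusted p = 0.451) turned to -0.08 without replicate 4. Between VF and E12 in LTHSC edgeR called 0 of the 10 and 0.0353% of all genes. An unadjusted p under 0.05 was reached by 4 members and 11% of all genes, and DESeq2 called 0 members and 1.17% of all genes. Cd37, Cd63, Cd81, Cd82 and Tspan32 did not overlap there, all 5 lower in VF, as were 9.72% of all genes. Cd37 was at -1.26 there (SE 0.37, edgeR adjusted p = 0.441) and at -0.72 without E12 replicate 4 (edgeR adjusted p = 0.422). Without E12 replicate 2 edgeR called it (log2 -1.57, edgeR adjusted p = 0.0426) and 2.11% of all genes.

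In preMegE, edgeR called 0 of the 10 between VF and KI and 0.0151% of all genes. An unadjusted p under 0.05 was reached by 0 members and 6.58% of all genes, and DESeq2 called 0 members and 0.527% of all genes. Tspan32 had 485, 600 and 393 CPM in VF, against 1213, 685 and 674 CPM in KI (log2 -0.81, SE 0.54, edgeR adjusted p = 0.651). Tspan33 had 18.9, 34.5 and 31.9 CPM in VF, against 39.5, 36.9 and 43.3 CPM in KI (log2 -0.51, SE 0.34, edgeR adjusted p = 0.653). Without KI replicate 1 the log2 differences were -0.46 and -0.50. In both genes all VF libraries lay below all KI libraries, as in 5.69% of all genes, and the 1213 CPM library of Tspan32 is KI replicate 1. VF preMegE held 8886 to 18916 CPM of neutrophil and monocyte markers, against 2544 to 3964 CPM in KI preMegE. The 6 B cell markers summed to 156 to 196 CPM in VF preMegE, against 349 to 1771 CPM in KI preMegE, and the 6 T and NK cell markers to 382 to 1027 CPM in VF, against 407 to 2622 CPM in KI. The highest B, T and NK cell sums were those of KI replicate 1, in which Cd3e, Cd4 and Cd8a of the T cell markers had no count. Cd8a had no count in any preMegE library, and Cd3e none in VF replicate 1 either. Erythroid markers summed to 1996 to 4510 CPM in VF preMegE, against 3699 to 5252 CPM in KI preMegE. The part of these in the tetraspanin values was not tested.

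In MkP, edgeR called 0 of the 10 members and 0% of all genes in each of the 3 comparisons of lines. An unadjusted p under 0.05 was reached by 2 members between VF and KI, by 2 between E12 and KI and by 0 between VF and E12, and by 26.9%, 29% and 1.24% of all genes. DESeq2 called 1, 1 and 0 members in these comparisons, and 19.1%, 21.7% and 0.0676% of all genes. Libraries of VF and KI did not overlap for 1 higher and 1 lower member (13.3% and 6.97% of all genes), those of E12 and KI for 2 and 2 (16.2% and 7.4%), and those of VF and E12 for 2 and 2 (6.59% and 8.19%). Cd63 was the member DESeq2 called. VF MkP had 146, 146 and 152 CPM of Cd63 and E12 MkP 129, 130 and 140 CPM, against 157, 851 and 1129 CPM in KI MkP. The VF and E12 libraries were close together, KI replicate 4 lay just above them, and the high values are KI replicates 5 and 6. These held 4777 and 6445 CPM of Nkg7 and 989 and 752 CPM of mast cell and basophil markers. Their megakaryocyte markers summed to 7006 and 16166 CPM. The part of these in the Cd63 values was not tested. The log2 difference was -2.38 for VF minus KI (SE 0.60, edgeR adjusted p = 0.0755, DESeq2 adjusted p = 0.000751) and -2.56 for E12 minus KI (SE 0.60, edgeR adjusted p = 0.0616, DESeq2 adjusted p = 0.000241). Without KI replicates 5 and 6, KI is a single library assumed to vary like the others, and the differences were -0.11 and -0.28. Without KI replicate 4 instead, edgeR called 3 members in each of these comparisons, and 48.9% of all genes for VF and 49.8% for E12; Cd63 was then at -2.86 and -3.03.

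Cd9 did not pass in any comparison of lines in MkP over all libraries. VF had 623, 536 and 615 CPM and E12 666, 680 and 697 CPM, against 321, 261 and 807 CPM in KI. At this TMM scaling the KI libraries lay on both sides of the other lines. By library size alone every KI library lay below every VF and E12 library. KI replicate 6 had 9979 Cd9 reads of 23566542, against 11556 of 20354022 in VF replicate 2. With TMM, VF minus KI was 0.25 (SE 0.45, edgeR adjusted p = 0.735) and E12 minus KI 0.44 (SE 0.45, edgeR adjusted p = 0.526). With library size as the only scaling, Cd9 stood 0.459 and 0.658 above the median of all genes in these comparisons. Those medians were 0.544 and 0.55, beside 0.013 and 0.003 with TMM. Without KI replicate 5 VF minus KI was -0.02. Set against KI replicate 4 alone they were 0.86 (edgeR adjusted p = 0.0401) and 1.05 (edgeR adjusted p = 0.0121), where 0.414% and 0.684% of all genes passed. Itga2b, the megakaryocyte integrin chain, had 873, 597 and 616 CPM in KI MkP and 1333 to 1810 CPM in the other MkP libraries. The 10 megakaryocyte markers, Itga2b among them, did not follow it as a sum. They held 3148, 7006 and 16166 CPM in KI replicates 4, 5 and 6, against 4998 to 7307 CPM in VF and 4938 to 5894 CPM in E12 MkP. The part of these in the Cd9 values was not tested. VF and E12 did not overlap in Cd9, but their difference of -0.19 (SE 0.45, edgeR adjusted p = 1) was within its error. Cd82 had 10.8, 20.0 and 17.7 CPM in VF MkP, all above the 7.76, 7.55 and 8.90 CPM of KI MkP (log2 0.91, SE 0.35, edgeR adjusted p = 0.141). Tspan33 had 8.61, 6.42 and 7.55 CPM in E12 MkP, all below the 15.2, 9.73 and 15.6 CPM of KI MkP (log2 -0.95, SE 0.42, edgeR adjusted p = 0.168). Cd151 had 86.1, 92.4 and 83.9 CPM in E12 MkP, all above the 72.7, 39.9 and 55.4 CPM of KI MkP (log2 0.54, SE 0.25, edgeR adjusted p = 0.176), and without KI replicates 5 and 6 the difference was 0.23. Erythroid markers summed to 238 to 377 CPM in KI MkP, 554 to 870 CPM in VF and 604 to 1088 CPM in E12. Neutrophil and monocyte markers summed to 2541 to 7288 CPM in KI MkP, 3910.5 to 8424.5 CPM in VF and 1456 to 3407 CPM in E12. The part of these sums in the tetraspanin values was not tested.

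**Figure D4:**
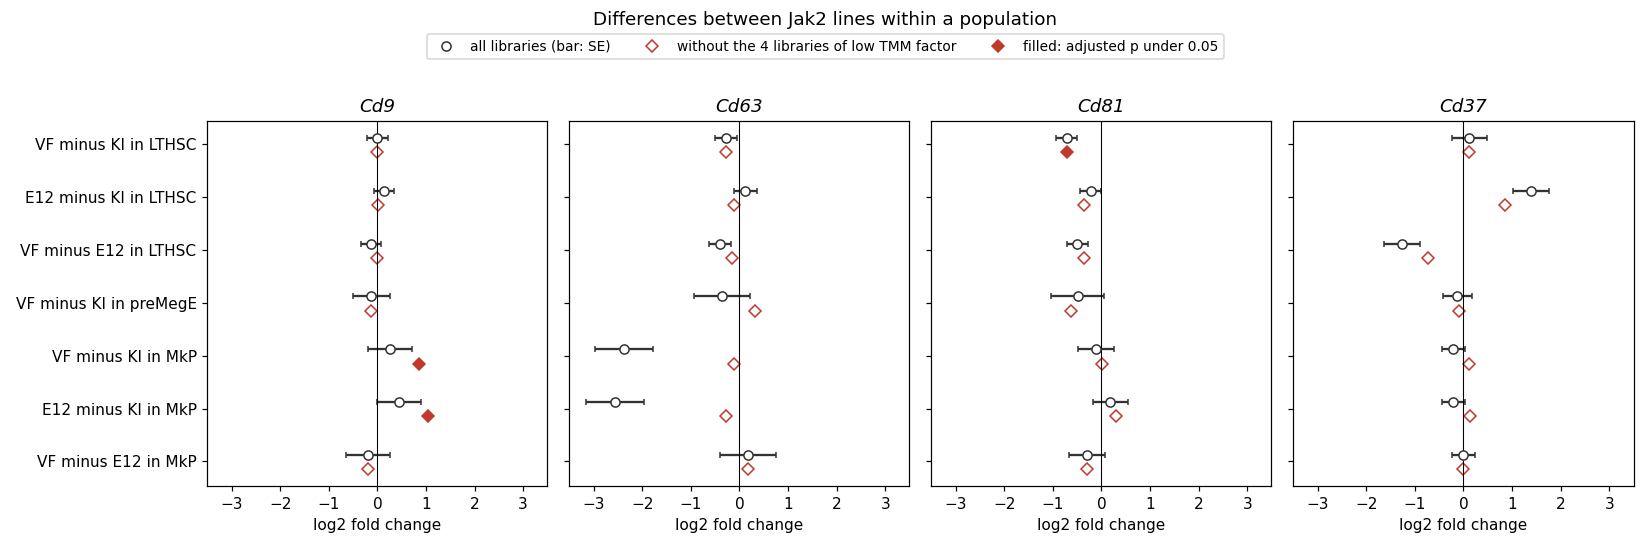
Log2 fold change of Cd9, Cd63, Cd81 and Cd37 in the 7 comparisons of Jak2 lines, with all libraries (circles, bars are standard errors) and without the 4 libraries of low TMM factor (diamonds). Filled symbols passed an adjusted p of 0.05. No circle is filled; the filled diamonds are Cd81 at -0.71 for VF minus KI in LTHSC and Cd9 at 0.86 and 1.05 for VF and E12 minus KI in MkP, and Cd63 for VF minus KI in MkP stands at -2.38 with all libraries and at -0.11 without the 4.

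Whether a difference between lines itself differed between populations was tested in 4 contrasts, and edgeR called 0 of the 10 members in each. For E12 minus KI, MkP minus LTHSC, edgeR called 0.0334% of all genes. An unadjusted p under 0.05 was reached by 2 members and 24.3% of all genes, and DESeq2 called 2 members and 15.2% of all genes. Cd37 had a difference of -1.48 (SE 0.41, edgeR adjusted p = 0.0568, DESeq2 adjusted p = 0.00635) and Cd63 of -2.55 (SE 0.71, edgeR adjusted p = 0.0568, DESeq2 adjusted p = 0.00638). Without the 4 libraries the differences were -0.76 for Cd37 and -0.205 for Cd63 (edgeR adjusted p = 0.872 and 1), and without LTHSC E12 replicate 4 -0.99 and -2.35 (edgeR adjusted p = 0.192 each). Both passed in edgeR when LTHSC E12 replicate 2 or 11, MkP KI replicate 4 or any one of the preMegE KI libraries was left out (lowest adjusted p 0.0073 for Cd37 and 0.00208 for Cd63, without MkP KI replicate 4). Without LTHSC E12 replicate 2 10.2% of all genes passed, and without MkP KI replicate 4 29.5%. For VF minus KI, MkP minus LTHSC, edgeR called 0.0134% of all genes. An unadjusted p under 0.05 was reached by 2 members and 14.4% of all genes, and DESeq2 called 1 member and 10.6% of the 3053 genes to which it gave an adjusted p. Cd82 had a difference of 1.59 (SE 0.52, edgeR adjusted p = 0.254), lower in VF in stem cells and higher in VF in MkP. Cd63 had a difference of -2.02 (SE 0.71, edgeR adjusted p = 0.254, DESeq2 adjusted p = 0.0441), which turned to 0.14 without the 4 libraries. Without MkP KI replicate 4 it was -2.50 (edgeR adjusted p = 0.0149), and 17% of all genes passed. For VF minus KI, preMegE minus LTHSC, 0 members and 4.43% of all genes had an unadjusted p under 0.05, and DESeq2 called 0 members and 0.0737% of all genes. For VF minus E12, MkP minus LTHSC, 2 members, Cd37 and Cd53, had an unadjusted p under 0.05, beside 3.71% of all genes, and DESeq2 called 0 members and 0.288% of all genes. Both of these contrasts had 0% of all genes called by edgeR.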

How the data were processed

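RNA of sorted bone marrow cells was extracted with the PicoPure kit and sequenced by Smart-seq2, per the labels' protocols. The deposited values are raw read counts per gene, and a further deposited column gives the gene length in bases, used here only to express levels per kilobase. STAR 2.7.0c, Subread 1.6.4, featureCounts and the build mm10 are named per the submitters' processing notes. The annotation, strand setting and treatment of multiply mapped reads are not given in the sources used here. Noncoding genes of RefSeq overlap Cd9, Cd81, Cd82, Cd151 and Tspan9, and without strand their reads cannot be told apart. The largest of those counted, R74862, had 3424 reads in all libraries against 431149 for Cd81.

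The columns of 18 libraries match their titles, and 6 others, named MEP, were assigned to the 6 preMegE libraries by line and number. The 16 rows without a symbol (at most 0.0132% of a library's counts) were left out. No 2 of the 24 libraries agreed within sampling noise: over 276 pairs the smallest chi-square was 20.7 per degree of freedom. Totals were 10357877 to 29691635, and as the reads carry no molecular identifiers they are not independent molecules.

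Tests were 2-sided F tests of edgeR's robust quasi-likelihood fit (edgeR 4.0.16, R 4.3.3) after filterByExpr by group and TMM, with Benjamini-Hochberg adjusted p under 0.05 as the threshold. SEs of log2 fold changes were taken as their size over the square root of F. The 7 comparisons of lines were fitted within a population. The 3 population comparisons, averaged over the lines both populations have, and the 4 contrasts of a line difference between populations used all 24 libraries in 1 fit. Likeness of pattern is Pearson's r of log2 CPM with a prior count of 2. The fits were also run on simulated counts with known fold changes. The simulated libraries included none that stand apart, and no result here rests on them. Coordinates and promoters are RefSeq's for GRCm38.p6, the assembly behind mm10, and all 10 genes matched by Entrez number. Promoter letters were searched on both strands, in the first start window that RefSeq's table gives for a gene. 1 B cell marker is not reported here.

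Alternatives were RLE scaling, library size only, no filter on low counts, DESeq2 1.42.0, each library left out in turn, the 4 libraries of low TMM factor left out, and the replicate number as a block. Same-numbered libraries of VF and KI preMegE deviated together (r 0.175 to 0.464 in 3 pairs), as did those of VF LTHSC and VF MkP (r 0.159 to 0.222). Only in these groups were the numbers taken to pair libraries, and the main tests use no block. The block was also fitted where numbers were not shown to pair. Among these were VF preMegE and VF MkP (r -0.2 to 0.095) and E12 LTHSC and E12 MkP (r -0.124 to -0.099). Calls lost with the block between MkP and preMegE rest on the VF numbers of these 2 populations. With the block 10 genes and 0 members were called between VF and KI in preMegE. Block contrasts of MkP used only lines in which both populations share replicate numbers. These were VF and E12 against LTHSC, and VF against preMegE. The 10 members and the lists of other tetraspanins, partners and markers were chosen with earlier results of these data known. All 10 members are described whatever their values. Other tetraspanins are named where their adjusted p between populations was under 0.05, and of the partners under it only some are named.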

Additional observations from a re-analysis of the deposited data

How the results depend on the processing

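Among the 10 genes, the calls of Cd9, Cd82 and Cd53 between MkP and LTHSC, of Cd9 and Cd82 between MkP and preMegE, and of Tspan9 and Tspan33 between preMegE and LTHSC held under every alternative run, each library left out included. The number of members called was 4 between preMegE and LTHSC, 6 between MkP and LTHSC and 4 between MkP and preMegE, and ranged from 3 to 4, 4 to 7 and 4 to 5 when 1 library was left out. With the replicate block, which used fewer lines in both MkP comparisons, it was 4, 4 and 2. Among the comparisons of lines the block called 1 member, Cd81 between VF and KI in LTHSC (-0.72, edgeR adjusted p = 0.0157), groups whose numbers were not shown to pair; it called 0 members in the others where it could be fitted. Of all 140 differences of the 10 genes, 25 reversed with library size only, 24 without the 4 libraries, 1 each with RLE and DESeq2, 0 without the filter, and 34 in at least 1 of the fits that leave out 1 library; with the block it was 18 of the 120 that could be fitted. None of those that reversed had passed the test, and the cause was not tested. The following are those among the differences whose values are reported. With library size only, under which the median of all genes was -0.41 between preMegE and LTHSC and -0.28 between MkP and LTHSC, beside -0.02 and 0.01 with TMM, Tspan32 reversed between preMegE and LTHSC (-0.14) and Cd37 between MkP and LTHSC (-0.0935). With the block Cd37 (-0.0084, MkP and LTHSC), Cd63 (-0.10, MkP and preMegE) and Cd53 (-0.67, E12 and KI LTHSC) reversed. Without the 4 libraries Cd53 (-0.0823, E12 and KI LTHSC) and the difference of differences of Cd63 (0.14, VF and KI) reversed.

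Counts of all genes called depended more on the setting. Between MkP and preMegE 1128 genes were called, 685 with library size only, 1745 with DESeq2, 2708 without the 4 libraries and 324 with the block, and 695 to 1912 with 1 library left out. Between MkP and LTHSC 5198 were called and 1891 with the block. VF against KI LTHSC gave 13, 5 with library size only, 251 with DESeq2, 293 without the 4 libraries and 704 with the block, and 1 to 293 with 1 library left out. E12 against KI LTHSC gave 6, 21 without the filter, 438 with DESeq2, 18 without the 4 libraries, and 2 to 396 with 1 left out. VF against E12 LTHSC gave 5, 3 with library size only, 9 without the filter, 165 with DESeq2, 13 without the 4 libraries, 13 with the block, and 1 to 305 with 1 left out. VF against KI preMegE gave 2, 0 with RLE, 9 without the filter, 68 with DESeq2, 32 without the 4 libraries, 10 with the block, and 0 to 32 with 1 left out. In MkP each comparison gave 0 by edgeR. VF against KI gave 2539 with DESeq2, 60 without the 4 libraries, 5 with the block, and 0 to 6732 with 1 left out. E12 minus KI in MkP gave 1041 without the filter, 2834 with DESeq2, 99 without the 4 libraries, 9 with the block, and 0 to 6856 with 1 left out. The highest of both is without MkP KI replicate 4. VF against E12 gave 9, 11 and 6 with DESeq2, without the 4 libraries and with the block, and 0 to 3 with 1 left out. The differences of differences gave 0 (VF and KI, preMegE), 2 (VF and KI, MkP), 5 (E12 and KI) and 0 (VF and E12). DESeq2 gave 11, 324, 2043 and 43. The ranges with 1 left out were 0 to 4, 2 to 2614, 0 to 4530 and 0 to 26. Library size only gave 1 for the second and 0 for the third, no filter 4 and 0, and leaving out the 4 libraries 33, 0, 0 and 0.

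Members called with 1 library left out ranged from 0 to 1 in VF and KI, E12 and KI, and VF and E12 LTHSC, 0 to 3 in VF and KI and in E12 and KI MkP, and 0 to 1 and 0 to 3 in the differences of VF and KI and of E12 and KI. DESeq2 called 1 member in E12 against KI LTHSC, 1 in each of VF and E12 against KI MkP, and 1 and 2 in those differences. No filter called 1 in E12 against KI MkP, and leaving out the 4 libraries 1 in VF against KI LTHSC and 1 in each of VF and E12 against KI MkP. Among the same reported differences the direction reversed when 1 library was left out for Cd9 and Cd81 between preMegE and LTHSC (ranges -0.0742 to 0.0558 and -0.19 to 0.0162), Cd63 between MkP and LTHSC (-0.21 to 0.12), Cd53 between E12 and KI LTHSC (-0.0823 to 1.15) and Cd9 between VF and KI MkP (-0.0234 to 0.96). Where 1 or 2 libraries left a group with 1 library, that library was assumed to vary like the other groups. No replicate block could be fitted for the differences of VF and KI, and of E12 and KI, between MkP and LTHSC.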
